A study of Mus musculus with 15 samples.

Results

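Batf, Batf2 and Batf3 are 3 related genes of the 18217 mouse genes that could be named on the array, and each was read by 1 of its 41174 probes. They were found by matching the transcript accession of each probe to RefSeq. Batf2 was picked because it rose clearly in the cardiac allografts of these same data, so the cardiac values of the 3 genes are given below as a description, with no test.

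The 3 genes encode small basic leucine zipper proteins of the AP-1 superfamily. They carry no activation domain of their own and act as dimers with JUN proteins, and BATF and BATF3 dimers can also join IRF4 or IRF8 on composite DNA elements. BATF is known from activated T cells and B cells, BATF3 from the development of cross-presenting dendritic cells, and BATF2 from macrophages exposed to interferon-gamma, which share in the rejection of a transplanted organ.

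Gene expression was measured in grafts of mice, 3 arrays for each of 5 groups, to compare acute rejection with controls. Cardiac allografts from C57BL/10 (B10) donors were placed in the abdomen of CBA recipients, beside the recipient's own heart, and were taken on postoperative day (POD) 5. Hepatic allografts from B10.BR (BR) donors replaced the liver of B10.D2 (D2) recipients and were taken at POD5 and POD8. Donor and recipient were males of different strains with different types of the major histocompatibility complex. Both strains of the hepatic pair carry the B10 name and the cardiac recipients do not, so the organs also differ in strain pair. Strain differences outside this complex were not stated in the sources used here. These sources describe no engineered genetic change and no immunosuppressive drug. The controls were 3 hearts and 3 livers that the labels call normal, whereas the results and legends of the study speak of isografts. Their strain and the age of the animals were not given in the sources used here.

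The labelled organs could be checked on their own markers. The hepatocyte genes Alb, Apoa1, Ttr and Hnf4a were well above background on every hepatic array and on 0 cardiac arrays. So were the cardiomyocyte genes Myh6 and Ryr2 on every cardiac array and on 0 hepatic arrays. Other listed markers did not separate the organs by this mark. Tnni3, Actc1 and Nppa were well above background on every hepatic array too, and Tnnt2 on some. Cyp2e1, a hepatocyte gene, was so on 2 of 3 arrays in each cardiac group. The summed cardiomyocyte signal was at least 576215 on the cardiac arrays and at most 1733 on the hepatic ones. The hepatocyte sum was at least 359485 on the hepatic arrays and at most 692 on the cardiac ones. Across the 15 arrays, 52.5% to 70.4% of the probes lay well above background, and 0 spots were saturated. The 75th percentile of the processed signal ran from 92.1 to 226 in the hepatic controls, 338 to 478 in the hepatic allografts, 394 to 710 in the cardiac allografts and 1021 to 1247 in the cardiac controls. The arrays came from 6 slides. The 3 cardiac allografts shared slide 1 and the 3 cardiac controls shared slide 2, and the slides were scanned on different days, so in the heart the slide and the scan day cannot be told apart from the group. Hepatic POD5 replicate 3 lay on slide 1 with the cardiac allografts, and slide 4 held 2 hepatic POD8 allografts and 2 hepatic controls.

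The DNA just before the start of Batf and Batf3 is shown because the family moved together and because interferon-gamma, NF-kappaB and AP-1 proteins act through short motifs. The sequences are the 250 bases upstream of the RefSeq start on the plus strand of GRCm38.p6, at chr12:85686470-85686719 for Batf and chr1:191098164-191098413 for Batf3. Capitals mark the match to a searched motif, and Batf2 is named only.
Batf: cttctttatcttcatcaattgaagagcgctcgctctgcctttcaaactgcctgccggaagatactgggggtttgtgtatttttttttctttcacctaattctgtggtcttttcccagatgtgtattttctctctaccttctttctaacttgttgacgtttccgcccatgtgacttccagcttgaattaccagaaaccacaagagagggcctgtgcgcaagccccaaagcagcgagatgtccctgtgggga
Batf3: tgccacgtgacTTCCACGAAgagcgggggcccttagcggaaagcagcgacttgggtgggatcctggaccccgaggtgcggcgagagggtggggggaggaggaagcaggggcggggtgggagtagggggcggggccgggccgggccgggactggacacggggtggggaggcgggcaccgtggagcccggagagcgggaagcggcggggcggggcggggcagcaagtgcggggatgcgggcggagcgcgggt

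The 2 stretches differed in base composition, with 46.4% G and C in Batf and 76% in Batf3. Motifs were searched on both strands. The Batf3 stretch held 1 match to the gamma-activated sequence GAS (TTCNNNGAA), which began 239 bases before the start. Of 32851 promoter stretches of this length, 7.02% held such a match. Neither stretch held the letters GAAANNGAA (core of the interferon-stimulated response element), TGANTCA (AP-1), TGACGTCA (cyclic AMP response element) or GGGANTTCC (a form of the kappaB motif), which were in 7.13%, 6.75%, 1.55% and 1.43% of the promoter stretches.

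All 3 genes stood higher in the allografts than in the controls of the same organ, and Batf2 in the heart had the widest separation of any member. Levels are log2 values of the processed signal after quantile normalization over the 15 arrays, and each member was well above background on all 15. Because a level belongs to its probe, levels are compared between groups for the same gene and not between genes.

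For Batf2, the cardiac allografts read 13.50, 13.73 and 13.46 and the cardiac controls 7.76, 7.49 and 7.53. In the liver, the allografts read 9.88, 9.61 and 10.22 at POD5 and 10.71, 10.96 and 10.39 at POD8, and the controls 7.56, 7.47 and 7.43. Every allograft array was thus above every control array, and the 2 control groups overlapped each other. Within an organ, 29.1% of all probes had every allograft above every control in the heart, 12.4% at hepatic POD5 and 12.9% at hepatic POD8.

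For Batf, the cardiac allografts read 10.82, 11.88 and 11.33 and the cardiac controls 9.54, 9.08 and 9.56. The hepatic allografts read 9.52, 9.69 and 10.52 at POD5 and 10.04, 10.06 and 9.64 at POD8, against 5.94, 7.40 and 6.90 in the hepatic controls. The cardiac controls were already high for this gene and overlapped the hepatic allografts at POD5, while the hepatic controls lay lowest and were the most spread of the 5 groups (SD 0.74, n = 3).

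For Batf3, the cardiac allografts read 11.01, 12.24 and 11.22 and the cardiac controls 8.06, 7.59 and 7.78. The hepatic allografts read 10.28, 10.36 and 10.99 at POD5 and 11.00, 11.02 and 10.96 at POD8, against 9.18, 9.50 and 9.09 in the hepatic controls. Here the control organs stood in the opposite order to Batf, with the liver above the heart, and the 3 allograft groups ran into each other.

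**Figure D1:**
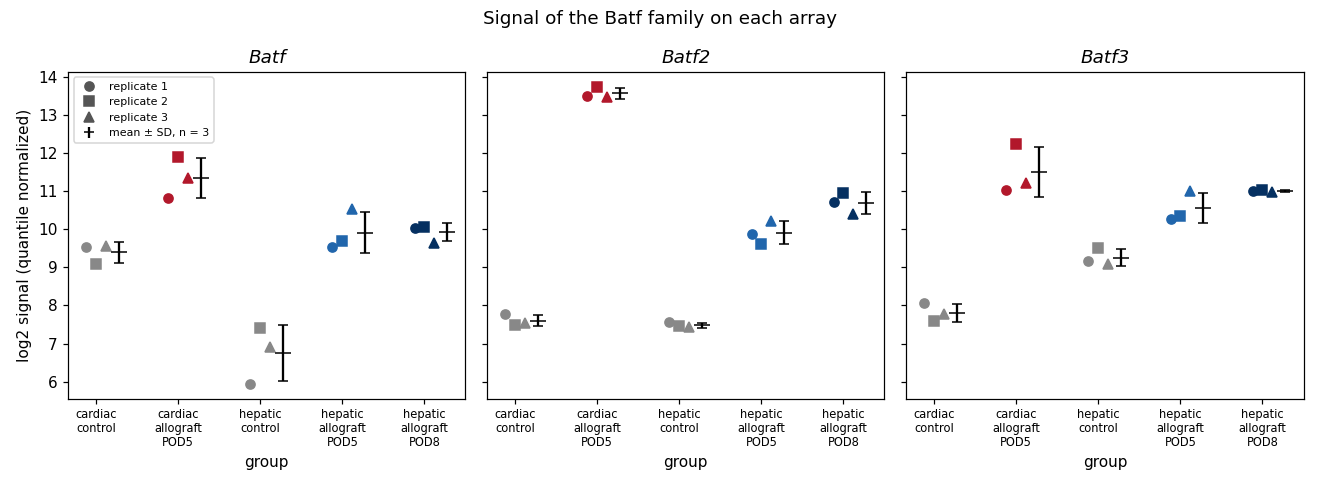
Log2 signal of Batf, Batf2 and Batf3 (y axis) on each of the 15 arrays, by group (x axis), with the mean and SD of the 3 arrays in black. For Batf2 both control groups lie between 7.43 and 7.76 and the cardiac allografts between 13.46 and 13.73, whereas for Batf the cardiac controls reach 9.56 and for Batf3 the hepatic controls reach 9.50.

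Ordered from the lowest mean to the highest, Batf2 ran from hepatic controls (7.48 ± 0.07, SD, n = 3) and cardiac controls (7.60 ± 0.15) through hepatic allografts at POD5 (9.91 ± 0.30) and POD8 (10.69 ± 0.29) to cardiac allografts (13.56 ± 0.15). Only the first pair of neighbours overlapped. The share of all probes with such an order of the 5 groups was not counted, so the order is a description. Batf ran from hepatic controls (6.75 ± 0.74) through cardiac controls (9.39 ± 0.27), hepatic allografts at POD5 (9.91 ± 0.53) and at POD8 (9.91 ± 0.24) to cardiac allografts (11.34 ± 0.53). Cardiac controls overlapped hepatic POD5 allografts, and the 2 hepatic time points overlapped each other and changed places under 75th percentile scaling and under normexp, a model-based background correction of the scanner's median signals. Batf3 ran from cardiac controls (7.81 ± 0.24) through hepatic controls (9.25 ± 0.22), hepatic allografts at POD5 (10.54 ± 0.39) and POD8 (11.00 ± 0.03) to cardiac allografts (11.49 ± 0.66), and neighbours among the 3 allograft groups overlapped.

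The control organs differed by gene. Batf was 6.26-fold higher in the control hearts than in the control livers, Batf3 was 2.72-fold higher in the control livers, and Batf2 differed by 0.11 on the log2 scale, with overlapping arrays. These organ differences ran the same way under 75th percentile scaling and normexp, at 2.63 and 1.81 (log2, heart minus liver) for Batf and -1.47 and -1.12 for Batf3. Under 75th percentile scaling the median of all probes was itself -0.76, against -0.07 with quantile normalization and -0.01 with normexp. The value of -1.47 for Batf3 is to be read beside that median. They are a description, since heart and liver controls lay on different slides.

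In the cardiac grafts at POD5, the rise of Batf2 was the one that led to the choice of these genes. It came to 5.97 on the log2 scale, or 62.6-fold, and was the 33rd largest of 41025 differences. Batf3, which drives the development of dendritic cells that prime CD8 T cells, was 3.68 higher (12.8-fold), and Batf, the member tied to effector T cells, was 1.95 higher (3.86-fold). The lowest allograft array exceeded the highest control array by 5.70 for Batf2, 2.95 for Batf3 and 1.26 for Batf. As many as 29.1% of all probes separated the cardiac groups in this direction, and 32% were called in either direction by Limma with Benjamini-Hochberg adjustment. Cardiac allograft replicate 2 was the highest array for all 3 genes and the dimmest of its group, and without it the differences were 5.88, 3.31 and 1.68 for Batf2, Batf3 and Batf.

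In the hepatic grafts at POD5, the order of the fold changes was different, with Batf first. Batf was 3.16 ± 0.47 higher on the log2 scale (SE, 95% interval 1.99 to 4.34, 8.96-fold, Limma adjusted p = 0.0376), and 2.48 higher with normexp. Batf2 was 2.42 ± 0.19 higher (1.94 to 2.90, 5.36-fold, adjusted p = 0.00978). The Batf3 difference was 1.29 ± 0.25 (0.66 to 1.91, 2.44-fold) and did not pass the threshold of 0.05, with an adjusted p of 0.0641 from Limma. Thus 2 of the 3 genes were called higher, where 2.38% of all probes were.

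All 3 genes had every POD5 allograft above every hepatic control, as did 12.4% of the probes. The smallest p that an exact 2-sided permutation test can give for 3 arrays against 3 is 0.1, and each gene reached it. The Batf call was lost when any 1 of the 6 arrays was left out (adjusted p 0.051 to 0.131), and the Batf2 call when POD5 replicate 1 or 2 was left out (0.0625 and 0.0623). Hepatic POD5 replicate 3, which shared its slide with the cardiac allografts, was the highest of its group for all 3 genes. Without it the differences were 2.86 for Batf, 2.26 for Batf2 and 1.06 for Batf3, and with scan day as a block the adjusted p was 0.1 for Batf, 0.0304 for Batf2 and 0.102 for Batf3. Replicate 3 was the only array of its scan day in this comparison, so the block amounts to leaving it out and is no separate check.

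**Figure D2:**
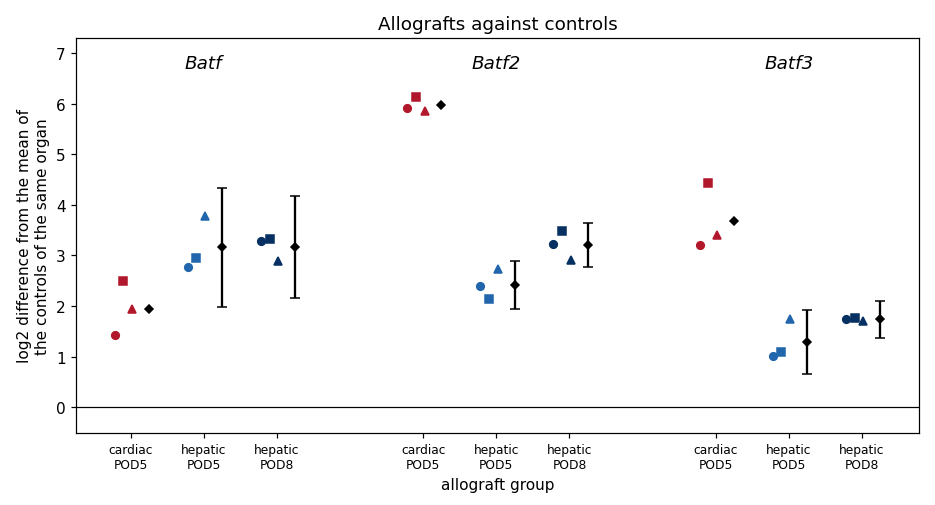
Log2 difference of each allograft array from the mean of the 3 controls of its organ (coloured points, circle, square and triangle for replicates 1, 2 and 3) and the difference of group means (black diamonds), for each gene and allograft group. Bars on the hepatic diamonds are 95% intervals from Limma, and the cardiac diamonds carry none because that contrast chose the genes. Batf2 stands at 5.97 in the heart against 2.42 and 3.20 in the liver, while Batf stands at 1.95 in the heart against 3.16 and 3.17 in the liver.

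In the hepatic grafts at POD8, all 3 genes were called higher, against 3.53% of the probes. Batf2 was 3.20 ± 0.17 higher (SE, 95% interval 2.77 to 3.64, 9.21-fold, Limma adjusted p = 0.00238). Batf was 3.17 ± 0.40 higher (2.16 to 4.18, 8.99-fold, adjusted p = 0.0204), and 2.39 higher with normexp. Batf3 was 1.74 ± 0.14 higher (1.38 to 2.10, 3.34-fold, adjusted p = 0.00676). Again every allograft exceeded every control for each gene, as 12.9% of the probes did, with an exact permutation p of 0.1. The comparison used the same 3 control livers as the one at POD5.

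Slide 4 alone, with 2 POD8 allografts and 2 controls, gave differences of 3.38 for Batf, 3.32 for Batf2 and 1.67 for Batf3. With 4 arrays, Limma called 0 probes there (adjusted p 0.125, 0.0561 and 0.0859 for the 3 genes). The Batf2 call at POD8 stood whichever array was left out. The Batf call was lost without any 1 of the allografts (adjusted p 0.0737 to 0.108), and the Batf3 call without POD8 replicate 1 or 2 (0.0548 and 0.0522).

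Between POD5 and POD8 in the liver, no gene passed the test, and Batf2 had the largest difference of the 3. It was 0.78 higher at POD8 (95% interval 0.23 to 1.34, 1.72-fold), with a Limma p of 0.0144 before and 0.293 after adjustment. Its 3 POD8 arrays lay above its 3 POD5 arrays by a gap of 0.17, as those of 9.29% of the probes did, and the exact permutation p was 0.1. Batf3 was 0.45 higher (-0.07 to 0.98, adjusted p = 0.442 by Limma), with overlapping arrays. Batf differed by 0.0045 (-0.75 to 0.75, adjusted p = 0.997 by Limma), and the sign of so small a value changed with the scaling. Limma called 0 of 41165 probes in this comparison, or 0%, while 5299 had an unadjusted p under 0.05, and the SFC method of the study called 213 after Bonferroni adjustment.

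Across the 15 arrays, Batf2 correlated with Batf3 at r = 0.86 (Spearman 0.91) and with Batf at 0.81 (0.90), and Batf with Batf3 at 0.58 (0.84). The points share 5 groups and the slides, so these values describe how the groups are ordered. Among 15259 other genes, those most like Batf2 by Pearson correlation over the 15 arrays were Wars (0.99), the tryptophanyl-tRNA synthetase gene that interferon-gamma induces, Ptpn6 (0.99), Gm12185 (0.98), Naaa (0.98) and Nfkbie (0.98). Those most like Batf were Tspan32 (0.99), Cd52 (0.99), which encodes a lymphocyte surface peptide, AI662270 (0.99), Tcstv3 (0.98) and Bcl2a1b (0.98). Those most like Batf3 were Ifi47 (0.97) and Gbp8 (0.96), both of interferon-inducible GTPase families, Calhm6 (0.96), Sowahc (0.96) and Nmi (0.95). By Spearman correlation the genes most like each member included Socs1 and Pdcd1lg2 for Batf2 (0.98 each), Tnfrsf9, Tnfrsf18 and Ly9 for Batf (0.98 each) and Calhm6 and Il4i1 for Batf3 (0.98 each).

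Of the 3 JUN genes, the usual dimer partners, Junb (0.52) and Jund (0.44) were called higher in the cardiac allografts and Jun was not (-0.20, log2 difference), with a list median of 0.44 against 0.02 over all probes. Under 75th percentile scaling, which moved the median of all probes to 0.47, the JUN differences were 0.53 and 0.44 and were not called. In the liver 0 of the 3 were called at POD5 or POD8. Over all probes, 15.6% were called higher and 16.4% lower in the heart. At hepatic POD5 these shares were 2.38% and 0.778%, and at POD8 3.53% and 1.44%. The counts of this and the following lists stand beside these shares. Of the 79 calls on listed genes, normexp made 78 smaller and moved 39 by over 1.5 times. Of 8 FOS and other AP-1 genes, Fos (0.69), Fosb (0.79) and Fosl1 (1.17) were called higher in the heart and Fosl2 (-0.82) and Maf (-1.12) lower. In the liver 0 of the 8 were called at POD5, and Atf3, a stress-induced repressor, was called at POD8 (2.98, adjusted p = 0.0364 by Limma). The POD5 difference of Atf3 was 3.04, which was not called but passed under 75th percentile scaling (adjusted p = 0.0209 by Limma).

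Both IRF partners were called higher in all 3 comparisons, where 15.6%, 2.38% and 3.53% of the probes were. Irf8, which is needed for dendritic cells and induced by interferon-gamma, was 3.83 ± 0.20 higher in the heart, 2.35 ± 0.20 at hepatic POD5 and 2.76 ± 0.18 at hepatic POD8 (SE, Limma adjusted p = 0.000675, 0.0109 and 0.00346). Irf4, which acts with BATF in activated T cells, was 3.26 ± 0.31 higher in the heart (adjusted p = 0.00223 by Limma), and 1.65 higher with normexp. It was not well above background on any control liver, so its hepatic change is a bound, at least 4.07-fold higher in the POD5 allografts and at least 2.36-fold higher in those of POD8 (adjusted p = 0.032 and 0.0393 by Limma). Each bound compares the mean of the allografts with the lowest signal that still counted as well above background in the control group, on the quantile normalized scale. With normexp the hepatic differences of Irf4 were 1.25 and 0.80 on the log2 scale, both smaller than these bounds, so the bounds hold for the quantile normalized scale only.

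Of 8 genes of interferon-gamma signalling, 5 were called higher and 1 lower in the heart, 4 higher at hepatic POD5 and 4 at hepatic POD8. The list medians were 2.65, 1.38 and 1.57 on the log2 scale, against 0.02, -0.07 and -0.08 over all probes. Ifng, the cytokine itself, was 10.56, 5.79 and 6.19 higher in the 3 comparisons, and 8.42, 3.81 and 4.21 higher with normexp. Socs1, the feedback inhibitor, was 5.82, 4.05 and 4.33 higher. Irf1, a transcription factor gene that interferon-gamma induces, was 4.21 higher in the heart and 2.12 higher at hepatic POD8, and its hepatic POD5 difference of 1.72 was not called (adjusted p = 0.058 by Limma). Ciita, the activator of MHC class II genes, was 4.01, 3.24 and 4.18 higher. Of the receptor genes, Ifngr2 was called lower in the heart (-0.70) and Ifngr1 higher at hepatic POD5 (1.03), and both calls were lost under 75th percentile scaling. Ifng and Ciita, and Ccl5, Cxcl9 and Cxcl10 below, are also among the genes that the study picked from these arrays, so their direction is not independent evidence.

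Of 7 measured genes linked to BATF2 in macrophages, 6 were called higher in the heart, 4 at hepatic POD5 and 5 at hepatic POD8, with medians of 4.47, 2.55 and 3.22. Cxcl9, a chemokine that draws CXCR3-bearing T cells, was 7.13, 5.92 and 5.31 higher, Ccl5 5.51, 4.10 and 4.94 higher, and Cxcl10 4.77, 4.23 and 4.61 higher. Tnf was 4.47, 2.55 and 3.22 higher, though with normexp it was 3.17 higher in the heart and 1.12 higher at hepatic POD5. Nos2, the inducible nitric oxide synthase, was at least 7.0-fold higher in the cardiac allografts than in their controls (adjusted p = 0.000504 by Limma), and was not well above background on any hepatic array. With normexp the cardiac difference of Nos2 was 0.71 on the log2 scale, smaller than this bound, which holds for the quantile normalized scale only. Il23a was not well above background on any array.

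Of 13 genes linked to BATF in T cells, 8 were called higher and 1 lower in the heart, 6 higher at hepatic POD5 and 9 higher at hepatic POD8, with medians of 1.80, 2.44 and 2.08. Tbx21, the regulator of type 1 T cells, was 4.73, 4.05 and 3.20 higher, Icos 3.98, 2.77 and 2.57 higher, and the inhibitory receptor gene Lag3 3.32, 3.59 and 3.59 higher. With normexp the differences were 3.14, 2.86 and 2.14 for Tbx21, 3.11, 2.22 and 2.05 for Icos, and 2.09, 2.29 and 2.23 for Lag3. Ctla4 was 3.95 higher in the heart, where 1 of the 3 controls was well above background and normexp gave 1.22, and, against control livers where it was not well above background, at least 2.38-fold higher in the POD5 allografts and at least 1.42-fold higher in those of POD8. With normexp the hepatic differences of Ctla4 were 0.87 and 0.56 on the log2 scale. The value at POD5 was smaller than its bound, so these bounds too hold for the quantile normalized scale only. Havcr2, another inhibitory receptor gene, was called in the liver (3.57 and 3.66, or 2.05 and 2.19 with normexp) and not in the heart (0.77, adjusted p = 0.148 by Limma). The difference between the organs was not tested. The cytokine gene Il17a and the receptor gene Il23r belong to the IL-17 programme, for which BATF is also known. Il17a and Il23r were not well above background on any array. Ahr was called lower in the heart (-1.73). Il21 counted among the cardiac calls with 1 allograft and 0 controls well above background, and among the POD8 calls with 0 controls. Il2ra counted among the POD8 calls although it was not well above background on any array of that comparison, and the call was lost under both other scalings.

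Of 10 measured genes linked to BATF3 and type 1 dendritic cells, 7 were called higher and 1 lower in the heart, 1 higher at hepatic POD5 and 3 higher at hepatic POD8, with medians of 1.0, 0.49 and 0.61. The cardiac call of Nfil3 (0.53) was lost under 75th percentile scaling (adjusted p = 0.117 by Limma). Naaa, a lysosomal amidase gene, was called in all 3 (4.73, 2.30 and 2.76). Xcr1, the chemokine receptor that marks these cells, was 2.19 ± 0.27 higher in the heart (adjusted p = 0.00436 by Limma) and differed by -0.13 and -0.29 in the liver (adjusted p = 0.898 and 0.581). Wdfy4, needed for cross-presentation, was called higher in the heart (1.08) and at hepatic POD8 (1.67), as was Itgae (1.73 and 2.22), which some T cells also carry. Zbtb46, a gene of conventional dendritic cells that endothelial cells also express, was called lower in the heart (-0.86). Between hepatic POD5 and POD8, 0 genes of these 7 lists were called.

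**Figure D3:**
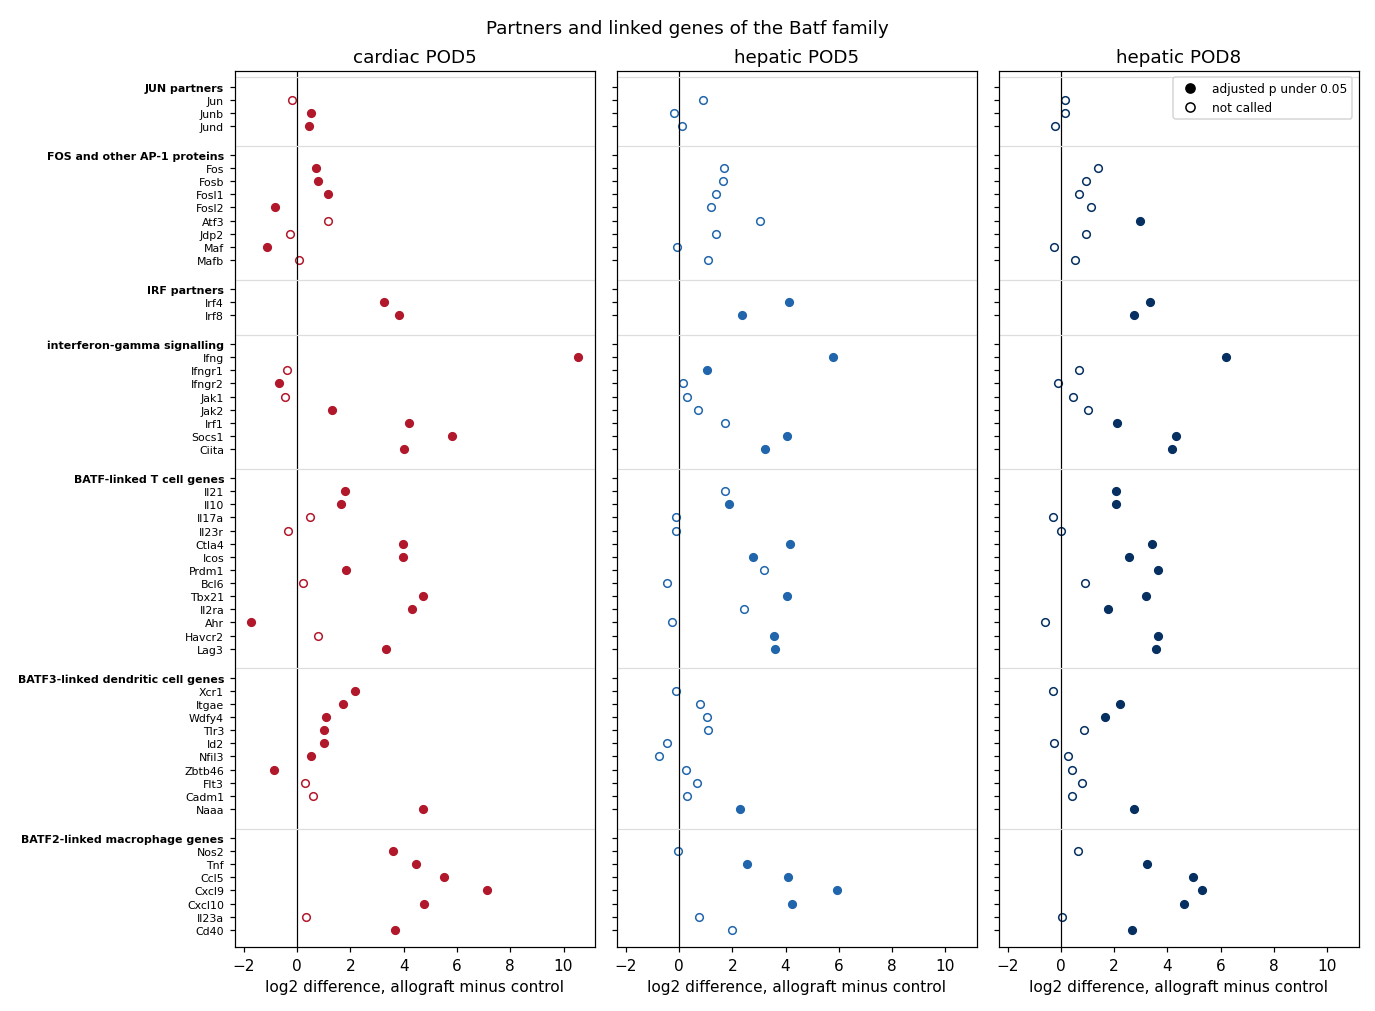
Log2 difference of allografts minus controls (x axis) for each measured gene of the 7 lists (y axis), in the cardiac grafts at POD5 and the hepatic grafts at POD5 and POD8. Filled points passed Limma's adjusted p of 0.05 and open ones did not, and points of genes near background show the measured difference and not the bound. Ifng lies farthest to the right in the cardiac panel at 10.56, and the 3 JUN genes lie between -0.21 and 0.88 in all panels.

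T cell markers moved with the family. The NK cell and macrophage sums, and that of type 2 conventional and plasmacytoid dendritic cells, were also higher on every allograft array than on the controls of the organ. At hepatic POD5, however, 0 markers of these lists were called. In the heart the median differences of the macrophage and dendritic cell lists went the other way (-0.26 and -0.14, log2). In whole tissue, more cells of a type and more RNA per cell cannot be told apart. Of all probes, 15.6% were called higher in the heart, 2.38% at hepatic POD5 and 3.53% at hepatic POD8. T cell markers were called higher for 8 of 8 genes in the heart, 6 of 8 at hepatic POD5 and 6 of 8 at hepatic POD8, with median differences of 4.43, 4.44 and 3.76. Their summed signal was 11650 to 18332 in the cardiac allografts against 478 to 689 in their controls, and 7925 to 13156 at hepatic POD5 and 6926 to 8775 at POD8 against 512 to 606. Cd8a was 6.02 higher in the heart, and, against control livers where it was not well above background, at least 102-fold higher in the allografts of POD5 and at least 103-fold higher in those of POD8. These bounds hold only for the quantile normalized values as processed here. The study, which also took logs and quantile normalized the same arrays, listed hepatic folds for Cd8a that lie below both bounds. The cause of this gap was not tested. Cd8a, Cd3d, Cd5 and Lck are also among the genes that the study picked from these arrays. Cd4 was 0.77 higher in the heart and was not called in the liver (-0.16 and -0.40).

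NK cell markers were called higher for 5 of 5 genes in the heart, 0 of 5 at hepatic POD5 and 3 of 5 at POD8, with median differences of 2.72, 2.52 and 1.73, and their sum ran from 668 to 844 in the cardiac allografts against 160 to 204, and from 118 to 261 in the hepatic allografts against 40.5 to 66.2. Of 5 macrophage markers, Fcgr1 was called in the heart (1.44), and 0 were called in the liver at either time. The macrophage sum was 39999 to 47778 against 24878 to 37133 in the heart, and 14905 to 20785 at hepatic POD5 and 23605 to 25292 at POD8 against 3334 to 11284. The median difference of the macrophage markers was -0.26 in the heart, 1.21 at hepatic POD5 and 1.64 at POD8, so in the heart the sum and the median differed in direction. B cell markers gave 0 calls in any comparison, and of 4 neutrophil markers 1 was called higher and 1 lower in the heart and 0 in the liver. Of 4 plasma cell markers 1 was called lower in the heart and 0 in the liver. The summed signal of 5 markers of type 2 conventional and plasmacytoid dendritic cells was 36389 to 47512 in the cardiac allografts against 9999 to 15340, and 47207 to 71089 in the hepatic allografts of both days against 21834 to 35529. Of these 5 genes, 1 was called higher and 2 lower in the heart, 0 at hepatic POD5, and 2 higher at POD8. Their median difference was -0.14 in the heart, 1.09 at hepatic POD5 and 0.95 at POD8, so in the heart this sum and median also differed in direction. Of 6 cardiomyocyte markers, 2 were called lower in the cardiac allografts, where 16.4% of all probes were called lower. All 5 endothelial markers were called lower in the cardiac allografts, where their sum was 1727 to 2808 against 6345 to 7187, and 0 were called in the liver. The part of these cell markers in the values of Batf, Batf2 and Batf3 was not tested.

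**Figure D4:**
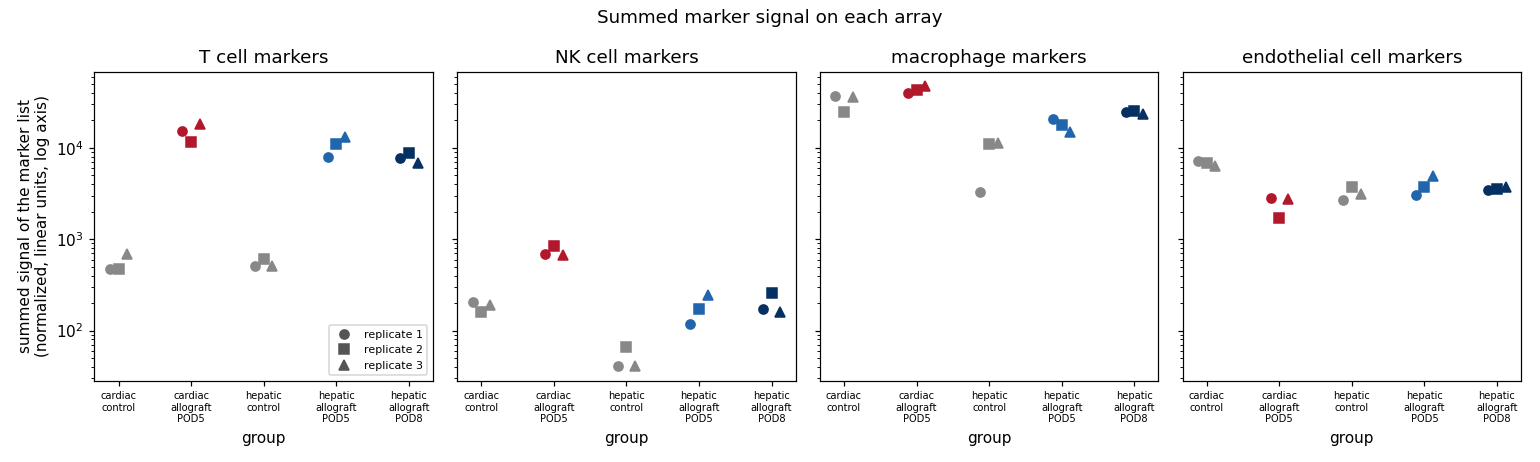
Summed normalized signal (y axis, linear units on a log axis) of the T cell, NK cell, macrophage and endothelial cell markers on each array, by group (x axis), with a symbol per replicate. The T cell sum is at least 6926 on every allograft array and at most 689 on every control array, and the endothelial sum is lower on every cardiac allograft array than on every cardiac control.

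Within the cardiac allografts, the T cell sum and the family did not rank the arrays alike. Replicate 2, the highest for Batf, Batf2 and Batf3, had the lowest T cell sum of the 3 (11650, against 15296 and 18332) and the highest NK cell sum (844, against 698 and 668). It also had the highest neutrophil sum (34202, against 8417 and 11265) and B cell sum (782, against 351 and 442), and the lowest cardiomyocyte sum (576215, against 789454 and 683048). Within the hepatic allografts at POD5, replicate 3 was highest both for the 3 genes and for the T cell sum (13156, against 7925 and 10978). With 3 arrays a group, these orders are descriptions only.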

How the data were processed

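Total RNA of each graft or control was hybridized with Cy3 to a single-colour Agilent array. The authors deposited a processed intensity per spot, linear and background-subtracted by Agilent Feature Extraction 10.5.1.1, with no normalization between arrays. Here, spots marked as outliers were dropped (47 to 113 of 43379 per array), log2 was taken, spots of a probe were averaged, and all 15 arrays were quantile normalized. Probes were named through RefSeq accessions of GRCm38.p6 (26690 of 41174), and the brightest probe stood for a gene. Well above background means that at least 0.5 of a probe's spots were so marked.

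Each comparison of 3 against 3 arrays was fitted with limma 3.58.1 in R 4.3.3 over all probes with a value on each array, with Benjamini-Hochberg adjustment and a threshold of 0.05. P-values measure the spread between these arrays, which may in part be technical, and with 3 arrays a group the precision is limited. The methods' t-test, SFC (bin size 1000), other scalings and normexp (offset 50, on median signals) were alternatives. Genes could be named from the members, the lists, their markers, and the 5 genes most correlated with each member. The members and lists were chosen with earlier results of these data known. The fits were tested on simulated data. Figures used matplotlib in Python. The plan to name probes by a gene name column was replaced by accessions. Clec9a, Cxcl11, Il12b, Cd68, Ly6g and Cps1 had no matched probe, and some genes of the planned lists are not reported here.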

Additional observations from a re-analysis of the deposited data

Results flagged for a closer look

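In 2 genes of interferon-gamma signalling, all cardiac allografts lay below their controls while all hepatic allografts lay above theirs, for Ifngr1 at POD5 and POD8 and for Jak1 at POD8. Over all probes, 25.5% had all cardiac allografts below their controls, and 12.4% and 12.9% had all hepatic allografts above theirs at POD5 and POD8. Ifngr1 differed by -0.37 (log2) in the cardiac grafts at POD5, by 1.03 in the hepatic grafts at POD5 and by 0.67 at POD8. Jak1 differed by -0.47 in the cardiac grafts and by 0.44 in the hepatic grafts at POD8, and at hepatic POD5 (0.30) its arrays overlapped those of the controls. Of these differences, Limma called only that of Ifngr1 at hepatic POD5. The difference between the organs was not tested for either gene, and Batf, Batf2 and Batf3 rose in both organs.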

How the results depend on the processing

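Each member kept its direction against the controls under every alternative run. In the heart, Batf2 was 5.77 higher with quantile normalization over the comparison or the organ, 5.81 with 75th percentile scaling and 5.54 with normexp, which gave 3.16 for Batf3. Normexp also gave 2.48 and 2.39 for Batf at hepatic POD5 and POD8, and of 79 calls on listed genes it moved 39 by over 1.5 times and made 78 smaller. At hepatic POD5, Batf3 passed the threshold with normexp (1.16), with dim probes removed and in 1 fit of 5 groups (both 1.29). Batf no longer passed with the methods' t-test (3.16, adjusted p = 0.112), slide as a random block (3.20) or scan day as a block (2.86), which amounts to leaving out POD5 replicate 3. At POD8 Batf did not pass that t-test (3.17, adjusted p = 0.0684). Bonferroni adjustment of limma or of the t-test ended every hepatic call (differences unchanged at 3.16 and 2.42 at POD5 and 3.17, 3.20 and 1.74 at POD8), and so did slide 4 alone at POD8 (3.38, 3.32 and 1.67). By SFC with Bonferroni, Batf (score 4.56) and Batf2 (4.01) did not pass at POD5, nor Batf3 (4.08) at POD8. Between hepatic time points Batf turned to -0.0035 under 75th percentile scaling, -0.0808 under normexp and -0.163 with slide as a random block.

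Same-numbered arrays did not deviate together (correlations -0.123 to 0.0438), so the numbers were not taken as pairs. With the replicate block, Limma called 8859 probes in the heart and 0 in each hepatic comparison, and the hepatic differences of 3.16 and 2.42 (POD5) and 3.17, 3.20 and 1.74 (POD8) did not pass (adjusted p 0.141, 0.127, 0.112, 0.0642 and 0.0874).

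Leaving out each array in turn gave, in the heart, 1.68 to 2.21 for Batf, 5.88 to 6.05 for Batf2 and 3.31 to 3.92 for Batf3, with 7547 to 17261 probes called. At hepatic POD5 it gave 2.76 to 3.49, 2.26 to 2.57 and 1.06 to 1.42, with 28 (without POD5 replicate 2) to 1027 probes. At POD8 it gave 2.77 to 3.49, 3.07 to 3.35 and 1.66 to 1.86, with 300 (without POD8 replicate 1) to 2659 probes. Between time points Batf ran from -0.191 to 0.309, Batf2 from 0.64 to 0.94 and Batf3 from 0.32 to 0.68, with 0 to 3 probes.

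In the heart 13116 probes were called, 21196 with 75th percentile scaling, 19 by the t-test with Bonferroni, 98 by Limma with Bonferroni and 242 by SFC. At hepatic POD5 1301 were called, 2204 without dim probes, 231 and 6 by the t-test with Benjamini-Hochberg and Bonferroni, 9 by Limma with Bonferroni, 346 by SFC, 6205 in 1 fit of 5 groups, 573 with slide as a random block and 329 with scan day. At POD8 2046 were called, 12875 with 75th percentile scaling, 816 and 14 by the t-test, 39 by Limma with Bonferroni, 359 by SFC, 4791 in 1 fit of 5 groups and 0 within slide 4. Between time points 0 were called, 1 with 75th percentile scaling, 6 without dim probes, 3 and 1 by the t-test, 213 by SFC, 12 in 1 fit of 5 groups and 3 with scan day. Scaling to the 75th percentile moved the median of all probes to 0.47 in the heart, -0.38 and -0.46 in the liver and -0.14 between time points. Of the called probes 74.2% were then higher in the heart (48.7% before) and 18.4% at hepatic POD8 (71.0% before). The cause of these changes was not tested.

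Each member had 1 probe, so other probes could not stand in for it. With 3 arrays a group, single arrays decide calls near the threshold. The dim control livers set bounds, not folds, for genes near background. The bounds hold only for the quantile normalized values as processed here, and for Cd8a the study listed smaller hepatic folds.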
